A study of Mus musculus with 6 samples.

Results

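The genes described here are Fasl, Bcl2 and Akt1, whose products act in cell death and survival. They are 3 of the 84 genes of interest on a custom qRT-PCR plate, and were chosen by name, each through its well on the plate map. Skin was measured from 3 GVHD controls and 3 CpG-proB recipients. All 6 animals were female Balb/c mice, irradiated with 5.8 Gy at 10 weeks of age and then given 5000000 bone marrow cells, depleted of T and B cells, and 1000000 splenocytes from C57BL/6 donors (C57BL/6J in the methods). The recipients had in addition received 750000 CpG-proBs, B-cell progenitors at the pro-B stage that had been activated with the TLR-9 agonist CpG. Per the labels, both groups had chronic graft-versus-host disease (GVHD). Mice without it were not analysed here. RNA came from 2 cm2 of back skin at day+70 post-irradiation. Each animal is named by the number that the labels give it, controls from 1 to 3 and recipients from 4 to 6.

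Fas ligand, the product of Fasl, is a membrane protein of the TNF family that activated T and NK cells carry. On binding its receptor Fas it starts a caspase cascade in the target cell, and in GVHD it is one of the means, beside perforin and granzymes, by which donor T cells kill host epithelium. Bcl2 sits in the outer membrane of mitochondria and blocks the release of cytochrome c, the step on which the intrinsic route to cell death turns. Akt1 is a kinase that growth factor receptors and integrins activate through PI3-kinase, and it phosphorylates and silences several proteins that favour death. The plate held no gene for Fas, for a caspase or for another member of the Bcl2 family, so the ligand and the survival factors were measured without the steps between them.

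Fasl was in well A6, and both of its primers lay in exon 1, with a product of 83 bp (transcript NM_001205243.1, chromosome 1). Bcl2 was in well A5, with the forward primer in exon 1, the reverse primer on the junction of exons 1 and 2 and a product of 150 bp (NM_009741.5, chromosome 1). Akt1 was in well A7, with primers in exons 3 and 4 and a product of 133 bp (NM_001165894.1, chromosome 12). The Fasl product therefore crossed no intron, unlike those of Bcl2 and Akt1. Products within 1 exon were made for 19 of the 82 genes tested (23.2%), Fasl among them. Such a product is the same from cDNA and from genomic DNA, and the wells do not tell these apart, so the Ct of Fasl and all values made from it may include both. The plate map names no genome build, so the positions of the products are given by exon.

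The promoters of Fasl and Bcl2 are shown because the Ct difference between these genes is the comparison treated most closely here. They are RefSeq sequences of the reference genome (GRCm38.p6, minus strand), not read from these animals, from 250 bases before to 50 after the transcription start, written 5′ to 3′. Capitals mark GGGCGG, the GC box bound by Sp1, and GGAAA, the core of NFAT sites, on either strand.
Fasl, chr1:161788446-161788745: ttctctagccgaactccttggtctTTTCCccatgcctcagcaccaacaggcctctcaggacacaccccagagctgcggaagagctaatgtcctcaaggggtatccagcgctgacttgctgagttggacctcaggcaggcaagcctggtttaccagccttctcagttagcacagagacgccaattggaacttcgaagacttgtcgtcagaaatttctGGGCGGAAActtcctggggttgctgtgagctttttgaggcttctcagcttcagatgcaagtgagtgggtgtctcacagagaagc
Bcl2, chr1:106714241-106714540: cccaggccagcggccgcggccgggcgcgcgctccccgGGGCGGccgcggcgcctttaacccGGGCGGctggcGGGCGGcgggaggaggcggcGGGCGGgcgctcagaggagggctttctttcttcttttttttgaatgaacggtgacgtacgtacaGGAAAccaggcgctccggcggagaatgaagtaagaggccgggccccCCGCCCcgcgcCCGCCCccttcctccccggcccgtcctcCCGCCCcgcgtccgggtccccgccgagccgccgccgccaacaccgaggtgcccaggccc

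The promoters of the pair were unlike in composition. The Fasl window was 53.3% G and C, close to the median of 52.7% over 32851 promoters of the same length, and held 1 GC box and 2 NFAT cores, of which 1 overlapped the GC box. The Bcl2 window was 76.0% G and C, a share that 3.10% of promoters reached, and held 7 GC boxes and 1 NFAT core. RefSeq lists 2 starts for Akt1, whose windows were 52.3% and 79.7% G and C and held 0 and 5 GC boxes. At least 1 GC box stood in 35.7% of all promoters and at least 1 NFAT core in 61.3%. These matches describe the letters of the windows only.

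For each well the plate gave the Ct (threshold cycle), or the cycle of the PCR in which the fluorescence of the product passed a fixed value. The more cDNA a well held, the lower its Ct, with 2 times as much for each cycle if the primers worked at full efficiency, which was not measured. The negative-control wells gave Ct values from 28.2 to 30.1. All 3 genes came up before them in every animal. Counted from the earlier negative-control well of the same animal, the margin was 2.06 to 3.92 cycles for Fasl. It was 2.40 to 4.22 for Bcl2 and 3.70 to 4.99 for Akt1. The latest Ct of Fasl (27.32) and of Bcl2 (27.15) were both in control 2. They lay nearer than these margins to 28.2, the earliest negative-control well of any animal. All 3 had a Ct in all 6 animals, and 82 of the 84 genes of interest had enough values to be tested.

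The Ct of Fasl was 24.97 in control 1, 27.32 in control 2 and 25.51 in control 3, and it was 25.69 in recipient 4, 26.68 in recipient 5 and 26.44 in recipient 6. Control 2 had the least Fasl product and control 1 the most, so the recipients lay within the range of the controls. The Ct of Bcl2 was 25.23, 27.15 and 25.21 in controls 1 to 3 and 25.11, 25.77 and 26.18 in recipients 4 to 6. Here again control 2 came up last, and the other 5 animals lay between 25.11 and 26.18. The Ct of Akt1 was 23.41, 25.43 and 25.06 in the controls and 23.98, 25.03 and 25.62 in the recipients, the earliest of the 3 genes in each animal. The whole plate shared part of this pattern, since the plate median Ct (over the genes of interest) was 27.66 in control 2 and between 25.72 and 26.68 in the other animals.

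**Figure D1:**
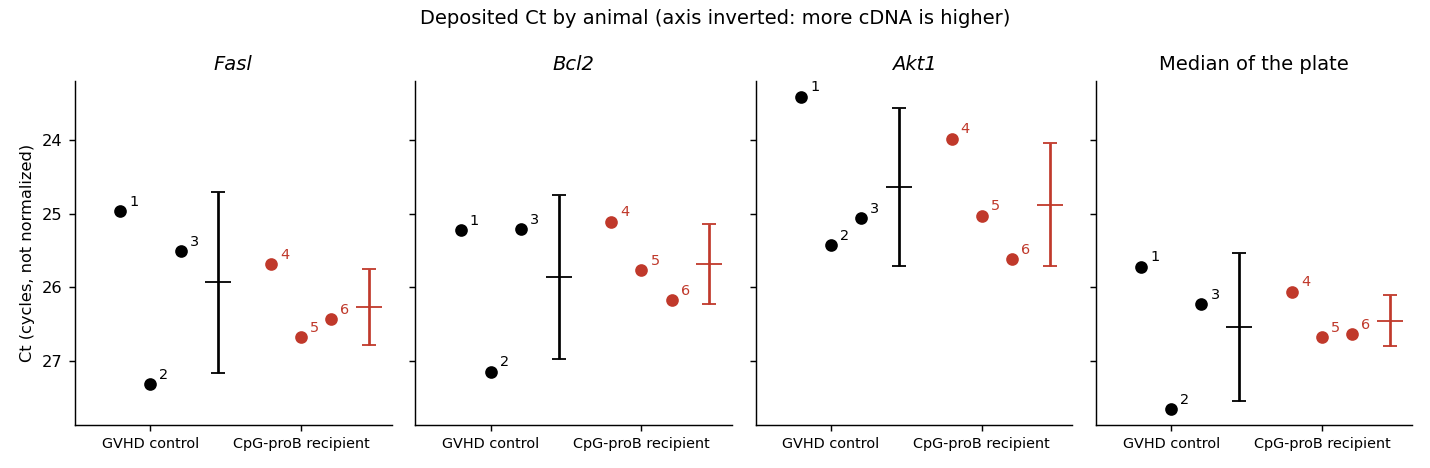
Deposited Ct (cycles, axis inverted) of Fasl, Bcl2, Akt1 and the median of the genes of interest in GVHD controls 1 to 3 (black) and CpG-proB recipients 4 to 6 (red); points are animals and bars are the mean and SD of 3 animals. Control 2 has the highest Ct for Fasl, Bcl2 and the median of the plate, and the groups overlap in all 4 panels.

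To remove the amount of template, the level of each gene was expressed as −ΔCt, the mean Ct of 6 house-keeping genes (Ppia, Tbp, B2m, Rplp0, Tfrc and Gusb) minus the Ct of the gene in the same animal. At full efficiency this is a log2 scale, on which a higher value means more RNA. The question was whether the skin of CpG-proB recipients differed from that of GVHD controls in the RNA of these genes. No such difference was detected for any of them. The study set its threshold at a 1.4-fold change together with a p of 0.05, taken here as unadjusted, and 0 of the 3 genes passed it in limma, against 17.1% of the 82 genes tested (14 genes). The count was also 0 at the unadjusted p alone, where the lowest of the 3 was 0.37, and 0 with unmoderated variances. For all 3 genes the groups overlapped, while they did not overlap for 20.7% of the genes tested. After adjustment, 2.44% of the genes tested had a p within 0.05. With 3 animals against 3, an exact permutation test cannot give a two-sided p under 0.1.

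For the death ligand Fasl, −ΔCt was −3.63, −4.38 and −3.31 in controls 1 to 3 and −4.03, −3.97 and −3.46 in recipients 4 to 6. All 3 recipients lay between control 2, the lowest animal, and control 3, the highest. GVHD controls averaged −3.78 ± 0.55 (SD, n = 3), and CpG-proB recipients averaged −3.82 ± 0.31 (SD, n = 3). This log2 fold change of −0.04 had a standard error of 0.51 and a 95% interval from −1.12 to 1.03 (adjusted p = 0.985 from limma with Benjamini-Hochberg adjustment; exact permutation test, p = 1). In terms of fold, a level in recipients between 0.461 and 2.04 times that in controls was within this interval. In whole skin, fewer cells carrying a transcript and less of it per cell cannot be told apart.

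For Bcl2, which protects mitochondria, −ΔCt was −3.89, −4.21 and −3.01 in controls 1 to 3 and −3.45, −3.06 and −3.20 in recipients 4 to 6. The recipients sat close together near the upper end of the controls, and control 3 was above all of them. The means were −3.71 ± 0.62 (SD, n = 3) and −3.24 ± 0.20 (SD, n = 3). The log2 fold change of 0.47, or 1.38-fold, had a standard error of 0.51 and a 95% interval from −0.61 to 1.55 (adjusted p = 0.664 from limma; exact permutation test, p = 0.4). A decrease to 0.656 times and an increase to 2.92 times the control level were both within it. Without control 3 the log2 fold change was 0.82, and without control 2 it was 0.22, and neither value passed the threshold.

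For the kinase gene Akt1, −ΔCt was −2.07, −2.49 and −2.86 in controls 1 to 3 and −2.32, −2.32 and −2.64 in recipients 4 to 6. The recipients again lay inside the range of the controls. The means were −2.48 ± 0.39 (SD, n = 3) and −2.43 ± 0.18 (SD, n = 3), and the log2 fold change was 0.05 with a standard error of 0.49 and a 95% interval from −0.99 to 1.09 (adjusted p = 0.985 from limma; exact permutation test, p = 1). The spread of Akt1 between animals was among the smallest on the plate, with a pooled SD of 0.308 against a median of 0.625 over the 82 genes, and it ranked 7 from the lowest. Bcl2 (0.461) and Fasl (0.448) were also below that median. In all 3 genes the controls covered a wider range than the recipients, 1.07 against 0.57 for Fasl, 1.20 against 0.39 for Bcl2 and 0.79 against 0.32 for Akt1 on the log2 scale. Whether the ranges differ was not tested.

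**Figure D2:**
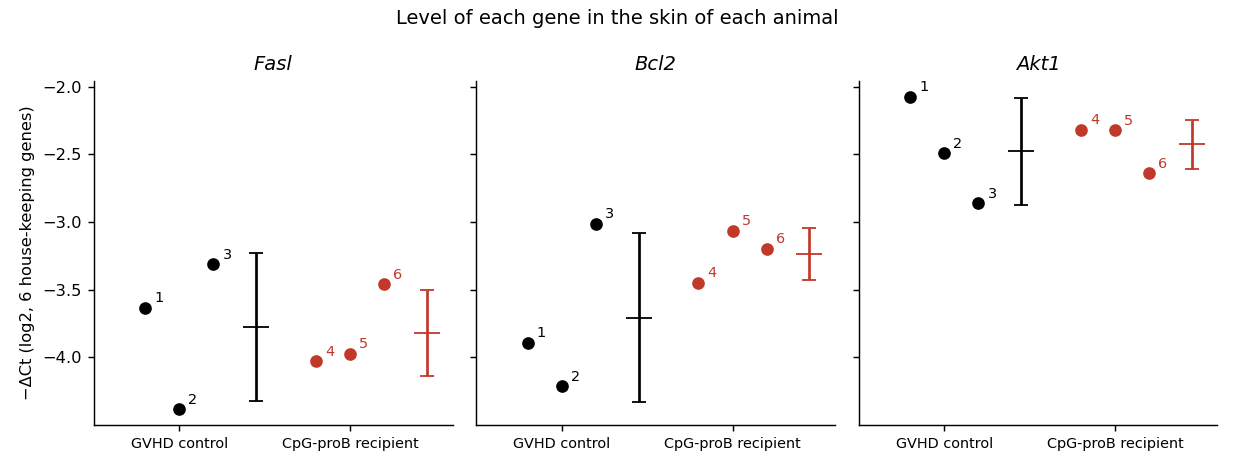
Level of Fasl, Bcl2 and Akt1 as −ΔCt (log2, relative to 6 house-keeping genes) in GVHD controls 1 to 3 (black) and CpG-proB recipients 4 to 6 (red); points are animals and bars are the mean and SD of 3 animals. The recipients lie within the range of the controls for Fasl and Akt1, and below control 3 and above controls 1 and 2 for Bcl2.

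The order of the log2 fold changes was Bcl2, Akt1 and Fasl, which ranked 28, 43 and 50 from the highest of the 82 genes. The median over all genes tested was 0.11, so that Bcl2 stood 0.36 above it, and Akt1 and Fasl 0.06 and 0.16 below it. No difference between neighbours in this order was detected (exact permutation test of the Ct difference, p = 0.5 for Bcl2 against Akt1 and p = 0.8 for Akt1 against Fasl).

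**Figure D3:**
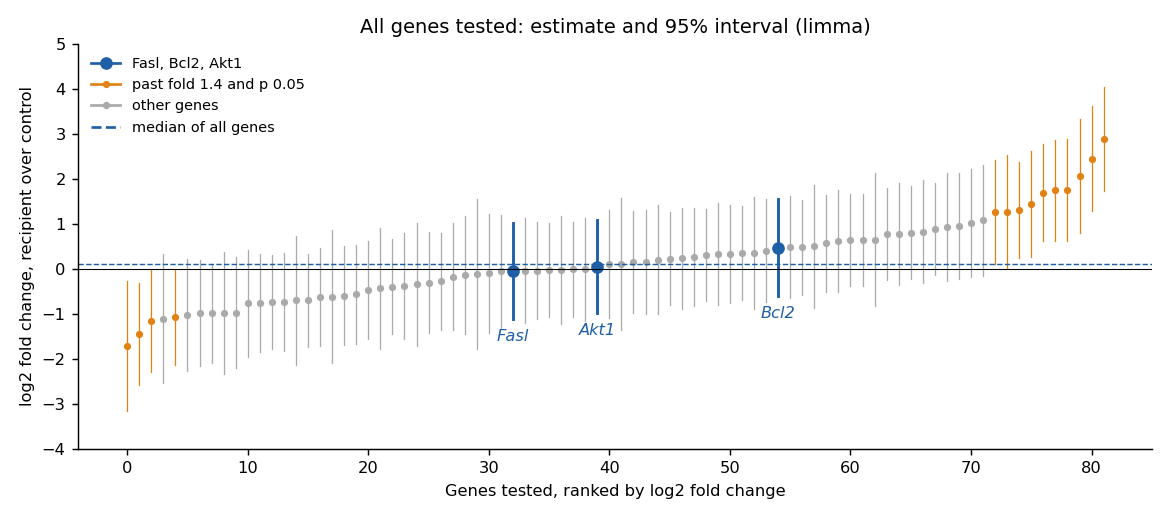
log2 fold change (recipient over control) of the 82 genes tested, ranked, with the 95% interval from limma; blue marks Fasl, Akt1 and Bcl2, orange the 14 genes past the threshold of the study, and the dashed line the median of 0.11. The intervals of all 3 genes include 0 and the median of the plate.

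The direction for Fasl and Akt1 depended on the reference, and that of Bcl2 turned with B2m alone. The house-keeping genes themselves moved between the groups by amounts from −0.76 cycles for B2m to 1.62 cycles for Actb (recipient minus control). Set against B2m alone, the log2 change was −1.10 for Fasl and −0.58 for Bcl2, with Akt1 between them. Set against Actb alone, it was 1.29, 1.80 and 1.38. Of the 8 house-keeping genes taken singly, 4 put Fasl higher in recipients, 5 put Akt1 higher and 7 put Bcl2 higher. The groups did not overlap with Tfrc as the only reference for Fasl (0.59), with Actb or Tfrc for Bcl2 (1.80 and 1.10), and with Ppia, Actb or Hprt for Akt1 (0.94, 1.38 and 1.08). For each of these the exact permutation test gave p = 0.1, the smallest that the design allows, over 24 combinations of gene and reference. These are 6 of the 24, beside 26.1% of the pairs of genes of interest whose Ct difference did not overlap. The house-keeping gene that varied most closely with Fasl and with Akt1 was Tbp, with an SD of the Ct difference over the 6 animals of 0.362 and 0.281, and for Bcl2 it was Gusb (0.445). With Tbp as the reference the log2 change was −0.01 for Fasl, 0.50 for Bcl2 and 0.08 for Akt1.

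With combinations of house-keeping genes the 3 genes shifted together. The log2 fold change with all 8 house-keeping genes was 0.25 for Fasl, 0.76 for Bcl2 and 0.34 for Akt1. With B2m, Gusb and Tbp, the house-keeping genes with the smallest pooled SD of Ct, it was −0.51, 0.01 and −0.41. The median of all genes tested moved by the same steps, from −0.35 with B2m, Gusb and Tbp to 0.41 with all 8. Neither these references nor the plate median Ct, no normalization or the set of Ppia, Tbp and Actb brought any of the 3 genes past the threshold. A change of reference moves all genes by the same step, so the sign that each gene keeps or loses follows from its place in the order.

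**Figure D4:**
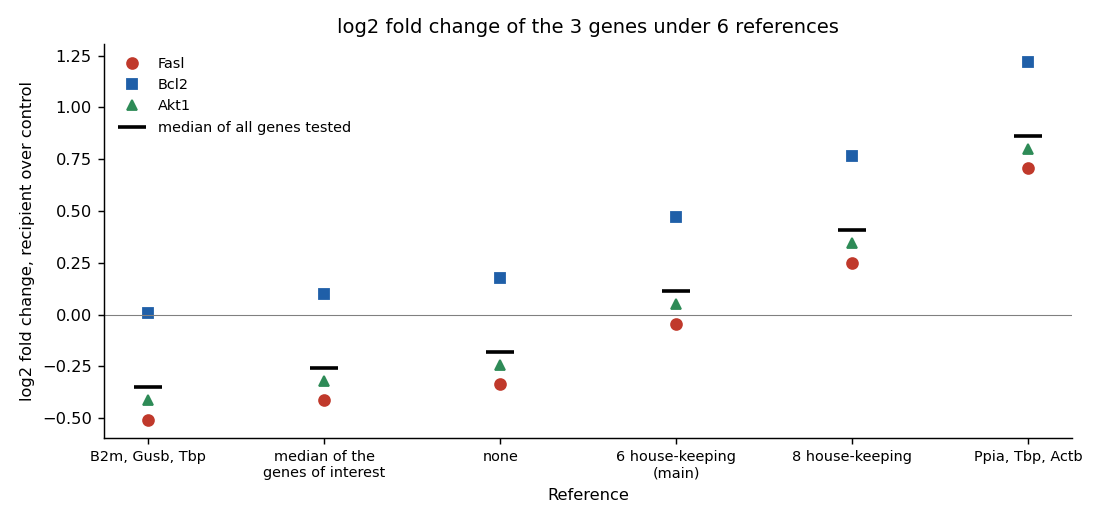
log2 fold change (recipient over control) of Fasl, Bcl2 and Akt1, and the median of the 82 genes tested (black bars), under 6 references. Fasl runs from −0.51 to 0.71, Akt1 from −0.41 to 0.80 and Bcl2 from 0.01 to 1.22, and the distances between the markers stay the same.

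The Ct difference between 2 genes of the same animal needs no reference, since the amount of template cancels. It does not give the ratio of the transcripts, because the primer pairs can differ in efficiency. The Ct of Fasl minus that of Bcl2 was −0.26 in control 1, 0.17 in control 2 and 0.30 in control 3. In recipients 4, 5 and 6 it was 0.58, 0.91 and 0.26. Bcl2 thus came up before Fasl in 5 of 6 animals, and Fasl came up first in control 1. GVHD controls averaged 0.07 ± 0.29 cycles (SD, n = 3) and CpG-proB recipients 0.58 ± 0.33 cycles (SD, n = 3). The means thus differed by 0.51 cycles, a factor of 1.43 at full efficiency, with less Fasl relative to Bcl2 in recipients. Recipients 4 and 5 were above all controls, and recipient 6 was 0.04 cycles below control 3. No difference between the groups was detected by the exact permutation test (two-sided, p = 0.2), whose smallest possible p with 3 animals against 3 is 0.1.

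The overlap in the Fasl-to-Bcl2 difference rested on control 3 and recipient 6. Without control 3 the change was 0.63 cycles (exact permutation p = 0.2) and without recipient 6 it was 0.68 cycles (exact permutation p = 0.1), and in both cases the groups no longer overlapped. With each of the other animals left out in turn the change lay between 0.35 and 0.56 cycles and the groups overlapped, so the direction was the same in all 6. Among the 3321 pairs that the 82 genes form, the groups did not overlap in 26.1%, and 67.2% of the pairs changed by more than Fasl and Bcl2 did. A change of this size was therefore common on the plate. The pair was close in another respect, as the SD of its Ct difference over the 6 animals was 0.395 cycles, below a median of 0.962 over all pairs, and 2.95% of the pairs had a smaller one.

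The Ct of Fasl minus that of Akt1 was 1.56, 1.89 and 0.45 in controls 1 to 3 and 1.71, 1.65 and 0.82 in recipients 4 to 6. One animal of each group, control 3 and recipient 6, stood well below the others. The means were 1.30 ± 0.75 (SD, n = 3) and 1.39 ± 0.50 (SD, n = 3), a change of 0.09 cycles (exact permutation test, p = 0.8) that turned to −0.33 without control 3 and was also below 0 without recipient 4 or without recipient 5. The Ct of Bcl2 minus that of Akt1 was 1.82, 1.72 and 0.15 in the controls and 1.13, 0.74 and 0.56 in the recipients. All recipients were below controls 1 and 2 and above control 3. The means were 1.23 ± 0.94 (SD, n = 3) and 0.81 ± 0.29 (SD, n = 3), a change of −0.42 cycles (exact permutation test, p = 0.5), and without control 3 it was −0.96 cycles with no overlap (exact permutation p = 0.1). These were the 3 pairs compared, with p-values not adjusted for their number.

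**Figure D5:**
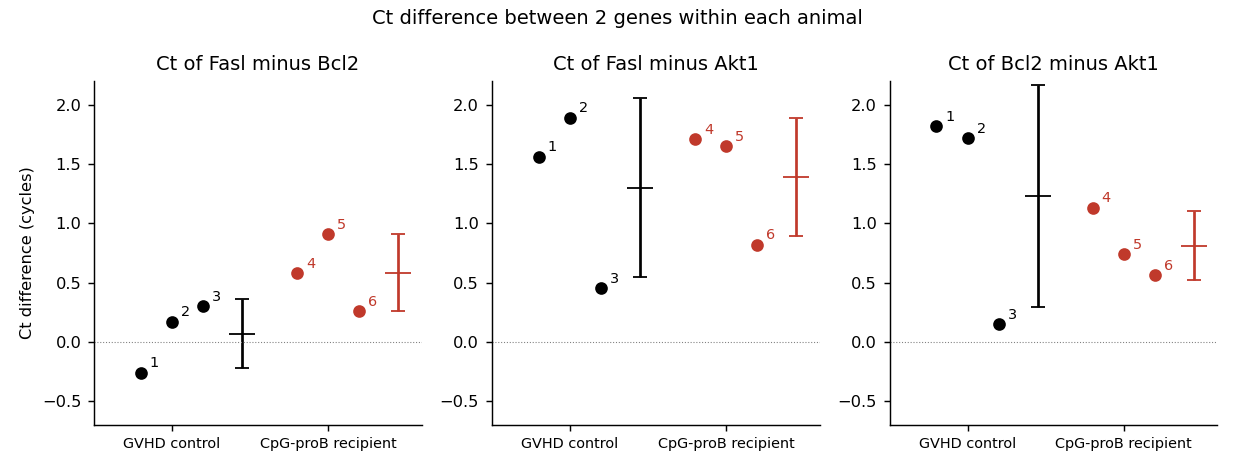
Ct difference (cycles) within each animal for Fasl minus Bcl2, Fasl minus Akt1 and Bcl2 minus Akt1 in GVHD controls 1 to 3 (black) and CpG-proB recipients 4 to 6 (red); points are animals and bars are the mean and SD of 3 animals. For Fasl minus Bcl2, recipients 4 and 5 are above all controls, and recipient 6 at 0.26 is just below control 3 at 0.30.

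The genes whose Ct ran most nearly parallel to that of each gene were found by the SD of the Ct difference over the 6 animals, among the other 81 genes tested. For Fasl they were Il1b, the gene of the inflammatory cytokine interleukin 1 beta, with an SD of 0.106 cycles, Il4 (0.322) and Myc (0.332). In 3 of the 6 animals Il4 came up no earlier than 28.2, the first negative-control well of any animal. The Ct of Il1b minus that of Fasl was 0.82, 0.75 and 0.56 in controls 1 to 3 and 0.59, 0.76 and 0.77 in recipients 4 to 6. It stayed within 0.26 cycles while Fasl itself ranged over 2.35 cycles, and none of the 3321 pairs had a smaller SD, the next being 0.184. Of the 5 genes nearest to Fasl, 4 have both primers in 1 exon, as Fasl does, and the same held for 3 of the 5 nearest to Bcl2 and 2 of the 5 nearest to Akt1. The median SD against Fasl was 0.527 cycles over the 18 such genes and 0.774 over the 63 others, a comparison made after the values were seen. The same medians were 0.592 and 0.745 cycles against Bcl2 and 0.770 and 0.906 against Akt1. The part of primer placement in these likenesses was not tested.

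Bcl2 ran most nearly parallel to Itgb1, the gene of the beta 1 integrin subunit (0.274 cycles), to Il6 (0.299) and to Il4 (0.327). A Ct no earlier than 28.2 was seen for Il6 in 1 animal and for Il4 in 3. The Ct of Itgb1 minus that of Bcl2 was −2.44, −2.47 and −1.79 in the controls and −2.44, −2.52 and −2.26 in the recipients, so that only control 3 stood apart. Akt1 ran most nearly parallel to Cebpb, the gene of the transcription factor C/EBP beta (0.286 cycles), to Myc (0.359) and to Mmp14 (0.398). The Ct of Cebpb minus that of Akt1 lay between 1.84 and 1.87 in all 3 controls and at 2.02, 2.32 and 1.44 in recipients 4 to 6. By this measure Bcl2 ranked 7 among the 81 genes for Fasl, and Akt1 ranked 22 for Fasl and 28 for Bcl2.

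Fas ligand is made by killer lymphocytes, and 5 other genes that such cells use were on the plate, namely the protease gene Gzmb, the cytokine genes Ifng and Tnf, and the transcription factor genes Tbx21 and Eomes. None of the 5 passed the threshold, their log2 fold changes ranged from −0.70 to 0.35, and the median was −0.01 against 0.11 over all genes tested. The −ΔCt of Gzmb was −4.05, −6.05 and −3.39 in controls 1 to 3 and −4.55, −4.95 and −4.40 in recipients 4 to 6. Control 2 was the lowest animal for Gzmb, as it was for Fasl, and it was also the lowest for Ifng (−6.64) and Eomes (−6.00). The same animal was the lowest for Bcl2 (−4.21) and for the plate median on this scale (−4.72), so this was not particular to killer lymphocyte genes. The lowest animal was recipient 4 for Tnf (−5.55) and control 1 for Tbx21 (−9.22). All 5 genes had a Ct in control 2 later than 28.2, where the first negative-control well of any animal came up, as had Eomes in recipient 5 and Tnf in recipient 6, so the order of these low levels is not firm. Against the earlier negative-control well of control 2 itself, Ifng and Tbx21 were later and Gzmb, Tnf and Eomes earlier. The Ct of Gzmb minus that of Fasl was 1.67 in control 2 and lay between 0.08 and 0.98 in the other animals. The summed level of the T and NK cell markers Gzmb, Ifng, Tbx21 and Eomes (log2 of the sum of their relative levels) lay between −4.54 and −2.08 for controls and between −3.71 and −2.79 for recipients, and none of these 4 passed the threshold. Their part in the Fasl values was not tested. Tbx21 was later than 28.2 in 6 of 6 animals, so its values have no firm order.

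Of the genes upstream of Akt1, the growth factor genes Egf, Hgf, Pdgfa, Pdgfb and Vegfa and the receptor gene Kit were listed. The plate also held integrin genes, which were not part of this list. Kit lacked a Ct in 3 of the animals and was not tested. Of the 5 genes tested, 2 passed the threshold, both higher in recipients, namely Egf (log2 fold change 2.45, adjusted p = 0.0153 from limma) and Pdgfb (1.70, adjusted p = 0.061 from limma). The share over all genes tested was 17.1%. The median of the 5 was 0.78, against 0.11 over all genes tested. The groups also did not overlap for Pdgfa, which stood lower in recipients (−0.70). It did not pass the threshold with moderated variance and passed it with its own (unadjusted p = 0.045 with the unmoderated variance from limma). The Ct of Egf minus that of Akt1 was 3.50, 2.86 and 0.92 in controls and 0.29, 0.14 and −0.36 in recipients, and the groups did not overlap. That of Pdgfb minus Akt1 was 2.68, 2.22 and 0.99 in controls and 0.58, 0.68 and −0.31 in recipients. The change relative to Akt1 was −2.40 cycles for Egf and −1.65 cycles for Pdgfb, that is, both came up earlier against Akt1 in recipients, with no overlap of the groups (exact permutation test, p = 0.1 for each), as in 26.1% of all pairs. The Ct of Egf in control 2 was also later than 28.2, as was that of Hgf in 2 animals. Control 3 was the control nearest to the recipients in both pairs. For Hgf (a change of 0.07 cycles), Pdgfa (0.75) and Vegfa (−0.73) the differences from Akt1 overlapped between the groups. These values concern the RNA of the kinase, not its phosphorylation, which sets its activity.

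Bcl2 was also set beside the transcription factor genes Myc, Nfkb1 and Stat6, which act in survival and cytokine signalling. Their log2 fold changes were 0.31 for Myc, 0.35 for Nfkb1 and 0.65 for Stat6, none past the threshold with the moderated variance of limma. With its own variance Stat6 passed it (unadjusted p = 0.0189 with the unmoderated variance from limma). The groups did not overlap for Stat6, and they overlapped for Myc and Nfkb1. The Ct differences of these 3 genes from Bcl2 overlapped between the groups, with changes of 0.16 cycles for Myc, 0.12 for Nfkb1 and −0.18 for Stat6. The Ct of Myc minus that of Bcl2 lay between −3.63 and −3.45 in the 3 recipients, a narrower range than the −4.19 to −3.06 of the controls.

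The plate held no keratin gene, so the skin label could not be checked. The fibroblast and smooth muscle genes Col1a2, Col3a1 and Acta2 had a mean Ct of 23.4, 25.4 and 22.4, all before the negative-control wells. Such genes do not tell skin from other tissues. Of these 3 genes, Col3a1 passed the threshold, with a log2 fold change of −1.45, and the values of Col1a2 and Acta2 were 0.16 and 0.48. The macrophage genes Adgre1, Cd68 and Csf1r had a summed level between −3.28 and −2.15 for controls and between −2.91 and −2.42 for recipients, and 1 of them, Csf1r, passed the threshold (1.30), while the values of Adgre1 and Cd68 were −0.60 and −0.56. Adgre1 came up no earlier than 28.2 in 3 of 6 animals. The share past the threshold over all genes tested was 17.1%. Fcer2a, which marks B cells, passed it as lower in recipients (−1.72), though the groups overlapped and in 6 of 6 animals it came up later than 28.2. Their part in the values of Fasl, Bcl2 and Akt1 was not tested.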

How the data were processed

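Skin RNA was reverse transcribed with random primers and amplified with SYBR Green on a plate of 96 wells per animal. The authors deposited 1 Ct per well, not normalized. Neither the way a Ct was set nor the number of technical repeats is given in the sources used here. A further deposited table holds the authors' own comparison of the groups (ΔΔCt and fold change) and was not used. Wells were named through the plate map of the study. The methods state 6 house-keeping genes without naming them, and the 6 used here are those of an earlier analysis of these data. Their mean Ct stands for the geometric mean of their levels. For genes with 2 or more Ct values in each group, 82 in all, a two-sided test was run in limma 3.58.1 under R 4.3.3 and adjusted over all 82 by Benjamini-Hochberg. Single values had an exact permutation test. Python 3.11.15 and matplotlib 3.10.9 served for the other steps and the plots. The limma step was tested on simulated data. The precision of a well cannot be given from 1 Ct. Also named were, for each gene, the 3 genes nearest by the SD of the Ct difference, the genes of 3 lists (1 gene of them is not reported here), the marker genes and the house-keeping genes. Genes and lists were chosen with earlier results of these data known. The alternatives were other references, unmoderated variance, group medians, a mean Ct of at most 35, missing wells at a Ct of 40, and each animal left out in turn.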

Additional observations from a re-analysis of the deposited data

How the results depend on the processing

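No paired analysis was possible because the labels number the animals from 1 to 6 and the groups share no number. For Fasl, Bcl2 and Akt1, 12 alternatives were run (other references, unmoderated variance and each animal left out). None of these brought them past the threshold, and their adjusted p in limma ranged from 0.172 to 0.997. The lowest unadjusted p in limma was 0.0546, for Bcl2 (1.22) with Ppia, Tbp and Actb. The log2 fold change of Fasl (−0.04) turned to 0.25 with all 8 house-keeping genes and to 0.71 with Ppia, Tbp and Actb, a reference chosen after seeing the data. With each animal left out it lay between −0.35 and 0.19. That of Akt1 (0.05) turned to −0.41 with B2m, Gusb and Tbp, to −0.32 with the plate median Ct and to −0.24 without normalization, and lay between −0.14 and 0.25 with each animal left out. Bcl2 lay between 0.01 and 1.22 under these 12. The Fasl-to-Bcl2 difference kept its direction under all 7, from 0.35 to 0.68. Fasl minus Akt1 lay between −0.33 and 0.39 with each animal left out. Bcl2 minus Akt1 kept its direction, but changed by −0.98 in place of −0.42 when group medians replaced means. The 14 genes of the plate past the threshold (10 higher and 4 lower in recipients) became 22 with B2m, Gusb and Tbp (6 higher and 16 lower), 22 with the median Ct (7 and 15), 25 with Ppia, Tbp and Actb (25 and 0), 12 with all 8 (12 and 0) and 6 without normalization (3 and 3), and 11 to 16 with each animal left out. The cause was not tested. The number of animals, 3 per group, limits the precision.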
